A study of Rattus norvegicus with 21 samples.

Results

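Collagens, laminins and the proteins that link them were followed as RNA in rat retina after long exposure to light. The genes were all those in the count table whose symbol is that of a collagen chain (Col, a number, a and 1 digit) or of a laminin alpha, beta or gamma chain, together with Nid1, Nid2, Hspg2, Fn1 and Agrn. There were 60 such genes among 19099, and all 60 passed the filter on low counts that left 16006 genes tested. The retinas came from Sprague Dawley rats, 3 libraries for each of 7 groups: a control group, and animals kept 6 months under blue light (Blue200 and Blue1000), halogen light (Hal200 and Hal1000) or LED light (LED200 and LED1000). The design text writes white light where the labels write LED, and the names were matched by elimination. The labels give no unit for the levels 200 and 1000 and no light for the control animals, and an age of 8 months stands under another field of the labels. Whether the libraries of a group stem from separate animals is not stated, and p-values therefore reflect only the scatter among these libraries, part of which may be technical.

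A basement membrane is a thin sheet of matrix built from a laminin network and a type IV collagen network, joined by nidogens and by the heparan sulphate proteoglycans perlecan and agrin. In the eye such sheets lie under the inner surface of the retina, around its capillaries and under the pigment epithelium, and the lens capsule is an exceptionally thick one. Fibrillar collagens build the sclera and the corneal stroma, while vitreous fibrils hold collagens II, V or XI, and IX.

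Expression is given in CPM, counts scaled to library size with TMM factors, and a difference as log2 fold change ± standard error from the quasi-likelihood test of edgeR, with p-values adjusted over all tested genes. Libraries held 30404774 to 35437448 counts, so 3 counts in a library correspond to 0.0853 to 0.112 CPM. The summed level of 23 lens genes was 6321 CPM in control replicate 3, 10550 CPM in Blue200 replicate 1 and 4597 CPM in LED200 replicate 1, called the lens-rich libraries below. It was 2568 and 1393 CPM in Blue1000 replicates 1 and 3, 293 and 208 CPM in Hal1000 replicates 1 and 3, and 56.5 to 157 CPM elsewhere. The 16 genes of the rod list summed to 79420 to 87350 CPM in control and 36320 to 65720 CPM in Hal200, and to 763 to 2924 CPM in the other 15 libraries. Another 3 libraries (replicate 3 of Blue1000, replicate 3 of Hal1000 and replicate 2 of LED1000) had values in between their mates for 94.3 to 96.4% of the genes in which those mates differed by over 1.5 times. They are called in-between libraries below, and the tests counted them as full libraries unless they are said to be left out.

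In each comparison with control that used all libraries, a smaller share of these genes than of all genes passed the test. In Blue200 14 of the 60 were higher and 4 lower, against 53.5% of all tested genes called (27.7% higher and 25.8% lower). In Blue1000 22 were higher and 5 lower, against 54.3% of all genes (27.4 and 26.9%). In Hal200 0 were higher and 3 lower, against 11.9% (7.25 and 4.6%). In Hal1000 14 were higher and 6 lower, against 54% (27.3 and 26.8%). In LED200 11 were higher and 7 lower, against 52.2% (26.5 and 25.7%), and in LED1000 9 were higher and 6 lower, against 54.5% (27.7 and 26.8%). With the light groups averaged, called all light below, 15 were higher and 7 lower against control, and 58.6% of all genes were called (29.4% higher and 29.2% lower). The test of any difference among the 7 groups called 26 members, against 54.5% of all genes. The 6 light groups were set against the same 3 control libraries, so these comparisons are not independent of one another. The median log2 fold change over the 60 genes in all light was 0.16, and over all tested genes 0.04. Without the 3 lens-rich libraries, which leaves 2 libraries in control, Blue200 and LED200, 21 genes were higher and 6 lower in all light, against 59% of all genes, and the medians were 0.44 and 0.05. By group the members higher and lower were then 26 and 4 in Blue200 (52.3% of all genes called), 36 and 4 in Blue1000 (57.4%), 6 and 4 in Hal200 (18.8%), 23 and 6 in Hal1000 (56.8%), 17 and 8 in LED200 (51.1%) and 25 and 6 in LED1000 (57.5%).

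The counts of higher and lower genes followed the scaling. When the level of the endothelial gene list was held constant in place of TMM, the median of all genes shifted by -0.93 in all light and the split turned to 0 higher and 38 lower, against 71.9% of all genes called. When the bipolar cell list was held constant the shift was -0.08 and the split 10 higher and 7 lower, against 53% of all genes. With limma on log2(FPKM + 1) it was 26 and 4, with a shift of 0.20. The rises below are therefore rises relative to the bulk of retinal RNA. In bulk tissue more cells of a type and more RNA per cell cannot be told apart. Neither can be told apart from a larger share of the RNA where other RNA, such as that of the rod list, falls.

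Collagen IV chains, Nid1 and Hspg2 were highest in the lens-rich libraries. Col4a1 and Col4a2 encode the chains found in nearly every basement membrane. Col4a1 stood at 23.1, 21.7 and 708 CPM in control, 548, 52.2 and 44.5 in Blue200, 74.9, 53.3 and 67.02 in Blue1000, 32.4, 26.2 and 22.1 in Hal200, 51.2, 38.8 and 46.6 in Hal1000, 469, 32.01 and 42.7 in LED200 and 57.5, 53.4 and 45.8 in LED1000. Control replicate 3, Blue200 replicate 1 and LED200 replicate 1 were the 3 highest of the 21, at 30.7, 10.5 and 11 times the higher of their own group mates. Col4a2 was at 41.5, 44.7 and 385 CPM in control, 331, 85.7 and 76.5 in Blue200, 98, 88.9 and 98.1 in Blue1000, 47.3, 44.5 and 46.2 in Hal200, 80.3, 70.3 and 74.04 in Hal1000, 299, 63.5 and 73.4 in LED200 and 84.05, 86.95 and 75.8 in LED1000, with the same 3 libraries on top. Nid1, encoding nidogen, which ties laminin to collagen IV, was at 11.8, 9.78 and 153 CPM in control, 146, 30.9 and 26.9 in Blue200, 55.5, 39.5 and 47.2 in Blue1000, 22.4, 15.8 and 13.9 in Hal200, 33.1, 25.8 and 30.9 in Hal1000, 130.5, 23.6 and 31.6 in LED200 and 35.3, 32.1 and 27.96 in LED1000. Hspg2, encoding perlecan, was at 23.3, 29.6 and 366 CPM in control, 177, 47.02 and 44.3 in Blue200, 74.9, 64.5 and 71.3 in Blue1000, 36.3, 34.7 and 23.2 in Hal200, 51.4, 38.9 and 41.8 in Hal1000, 228, 34.6 and 47.2 in LED200 and 56.5, 46.6 and 26.8 in LED1000. For both genes the same 3 libraries were highest again. In all, 9 of the 60 genes exceeded 2 times the higher mate in each of the 3 libraries (Col1a2, Col4a1, Col4a2, Col4a3, Col4a5, Col4a6, Col6a2, Hspg2 and Nid1), as did 1.1% of all tested genes. These libraries had been picked by their lens genes, which are no members. Of the 21 tested lens genes 2 were higher and 1 lower in all light, beside 29.4 and 29.2% of all tested genes.

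**Figure D1:**
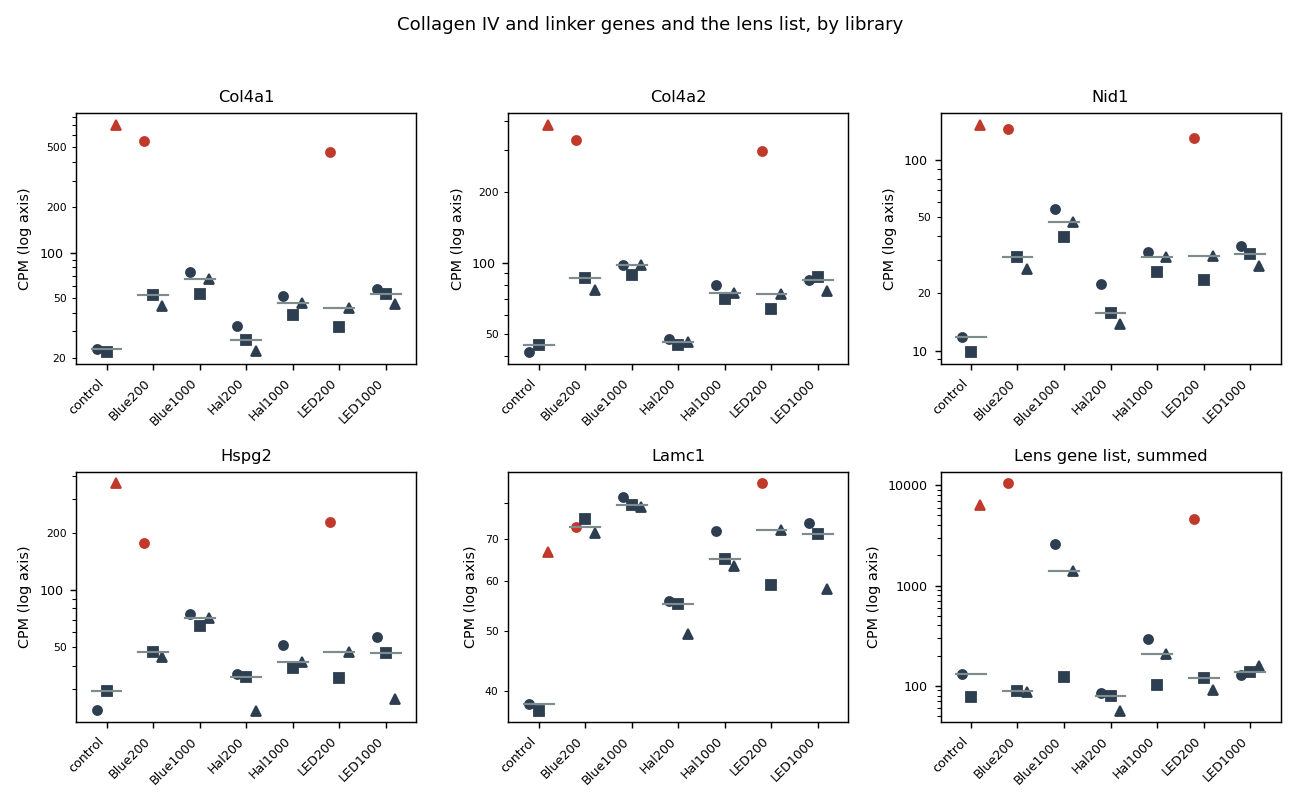
CPM on a log axis of Col4a1, Col4a2, Nid1, Hspg2 and Lamc1 and of the summed lens list in each of the 21 libraries, by group; circles, squares and triangles are replicates 1, 2 and 3, grey bars are group medians and the 3 lens-rich libraries are red. The red points are the highest 3 libraries for Col4a1, Col4a2, Nid1 and Hspg2, while for Lamc1 only the one of LED200 is above all other libraries.

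With control replicate 3 in the fit, the comparisons with control carried wide errors for this network. None of the 6 collagen IV chains was called in any comparison with control. Col4a1 ranged from -0.23 ± 1.26 in Blue200 (adjusted p = 0.893) to -3.22 ± 1.38 in Hal200 (adjusted p = 0.145), and was at -1.76 ± 0.84, adjusted p = 0.0867, in all light. Col4a2 ranged from 0.06 ± 0.79 in Blue200 to -1.77 ± 0.82 in Hal200 (adjusted p = 0.952 and 0.174). Nid1 ranged from 0.22 ± 0.92 in Blue200 to -1.75 ± 0.95 in Hal200 (adjusted p = 0.856 and 0.251). Hspg2 ranged from -0.44 ± 0.92 in LED200 to -2.15 ± 0.96 in Hal200 (adjusted p = 0.721 and 0.161). For all 4 genes the other control libraries lay below most light libraries, and control replicate 3 above every light library.

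Without the 3 lens-rich libraries the network was higher in light. Col4a1 was at 0.98 ± 0.16, adjusted p = 5.19e-05, Col4a2 at 0.76 ± 0.080, adjusted p = 2.6e-07, and Nid1 at 1.44 ± 0.18, adjusted p = 4.45e-06, in all light. Hspg2 was at 0.75 ± 0.24, adjusted p = 0.0137. Col4a4 and Col4a5, chains of more restricted basement membranes, were at 0.98 ± 0.26 and 0.89 ± 0.17 (adjusted p = 0.00286 and 0.000282), while Col4a3 (0.38 ± 0.16, adjusted p = 0.0519) and Col4a6 (0.55 ± 0.25, adjusted p = 0.0713) did not pass. By group Col4a1 was at 1.54 ± 0.19 in Blue1000, 1.22 ± 0.18 in LED1000, 1.11 ± 0.20 in Blue200, 1.02 ± 0.18 in Hal1000 and 0.74 ± 0.20 in LED200, adjusted p from 2.98e-06 to 0.00476. In Hal200 it was at 0.27 ± 0.18, adjusted p = 0.324, not past the threshold. In the remaining libraries Col4a1 stood at 21.7 and 23.1 CPM in control, at 22.1 to 32.4 CPM in Hal200 and at 32 to 74.9 CPM in the other groups. Blue1000 replicates 1 and 3, which stayed in, still held 2568 and 1393 CPM of the lens list against 122.8 CPM in replicate 2, and their Col4a1 was at 74.9 and 67.02 CPM against 53.3 CPM in replicate 2. The keratocyte and sclera list was also highest in the lens-rich library of its group, at 387 CPM against 125 and 121 in control, 392.1 against 314 and 158 in Blue200 and 528 against 183 and 188 in LED200. The part of either list in the collagen IV values was not tested.

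Col4a1 and Col4a2 start back to back. The 2 windows below, from 250 bases before to 50 bases after each start in the RefSeq promoter table for GRCr8, overlap by 176 bases, and the starts are 77 bases apart on opposite strands. They are shown because both genes were high in the same libraries. Capitals mark GGGCGG on either strand, the GC box letters, which 33.1% of all 33469 windows of this length hold and 25 of the 47 members with an entry (53.2%). The median GC content was 59.7% in the member windows and 51.7% in all windows, and its part in these shares was not tested. The build behind the counts is not given in the sources used here. The windows are chr16:84885347-84885646, plus strand, for Col4a1, and chr16:84885471-84885770, minus strand, for Col4a2, with 2 matches each, which are the same 2 sites read from either strand.
Col4a1: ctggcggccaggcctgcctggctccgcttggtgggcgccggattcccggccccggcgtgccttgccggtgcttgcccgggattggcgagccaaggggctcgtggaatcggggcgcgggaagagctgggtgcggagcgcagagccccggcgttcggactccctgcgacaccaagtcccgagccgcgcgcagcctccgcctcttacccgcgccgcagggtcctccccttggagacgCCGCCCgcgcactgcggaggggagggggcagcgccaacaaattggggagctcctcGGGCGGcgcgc
Col4a2: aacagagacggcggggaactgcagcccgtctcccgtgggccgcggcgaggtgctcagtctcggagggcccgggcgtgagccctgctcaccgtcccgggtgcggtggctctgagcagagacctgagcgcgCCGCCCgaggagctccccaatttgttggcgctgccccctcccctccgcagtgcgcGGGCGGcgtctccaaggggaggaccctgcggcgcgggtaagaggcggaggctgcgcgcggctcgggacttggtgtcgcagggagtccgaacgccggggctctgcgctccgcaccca
A match is a run of letters and says nothing of what binds there.

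Genes of other retinal cell types were called higher as well, beside 29.4% of all tested genes higher and 29.2% lower in all light. Of the 14 microglia genes 14 were higher in all light, and their summed level was 85.5 to 115 CPM in control and 139 to 383 CPM in the light groups. Of the 14 Müller glia genes 9 were higher and 0 lower, with sums of 9135 to 11080 CPM in control and 10280 to 16230 CPM in light, and all 5 astrocyte genes were higher. Their part in the basement membrane values was not tested. The vascular list was used as a scale for these rises. Of 22 endothelial genes 21 were higher in all light, with a median log2 fold change of 0.86. Their summed level was 886 to 934 CPM in control, 976 to 1248 CPM in Hal200 and 1233 to 1652 CPM in the other groups, and control replicate 3 did not stand apart in it. Cdh5, the cadherin of endothelial junctions, was at 0.84 ± 0.21, adjusted p = 0.0018, and Cldn5, a claudin of the same junctions, at 0.67 ± 0.16, adjusted p = 0.00113. Of 15 pericyte and smooth muscle genes 3 were higher and 1 lower, and Pdgfrb, a pericyte receptor, was at 0.08 ± 0.15, adjusted p = 0.683. With the endothelial list held constant and the 3 lens-rich libraries left out, an alternative added after the data were seen, Col4a1 was at -0.05 ± 0.19, adjusted p = 0.805, Col4a2 at -0.28 ± 0.18, adjusted p = 0.158, and Nid1 at 0.40 ± 0.20, adjusted p = 0.0657. Hspg2 was at -0.29 ± 0.19, adjusted p = 0.156, on that scale. Col4a3 was lower on it (-0.64 ± 0.18, adjusted p = 0.000698), as was Lama4, the alpha chain of endothelial laminin (-0.80 ± 0.18, adjusted p = 3.98e-05). Nid1 was still higher in Blue1000 (1.02 ± 0.24, adjusted p = 7.15e-05). In that group Nid1 was at 55.5 and 47.3 CPM in replicates 1 and 3, which held more lens RNA, and at 39.5 CPM in replicate 2. The endothelial scaling lowers every gene by the rise of that list, so a value near 0 means a rise as large as that of the list.

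**Figure D2:**
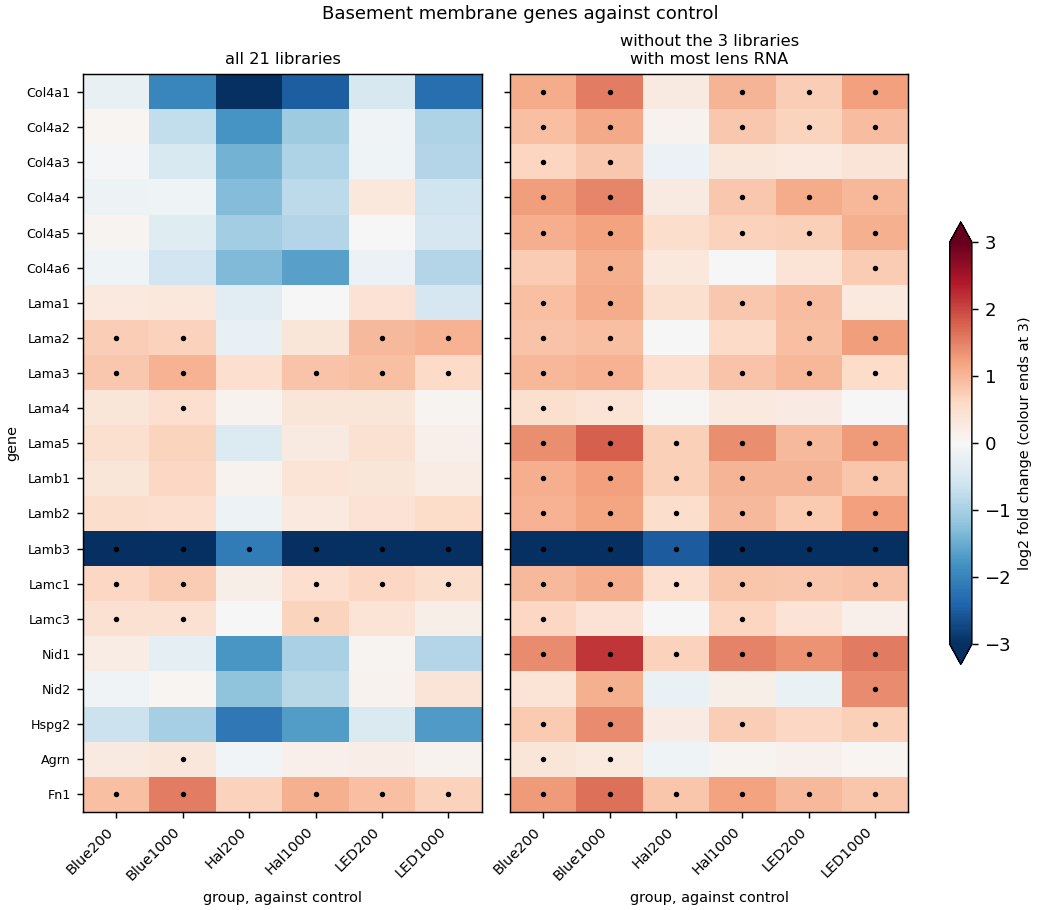
Log2 fold change against control of collagen IV, laminin and linker genes in the 6 light groups, with all 21 libraries (left) and without the 3 lens-rich libraries (right); black dots mark adjusted p below 0.05 and colours end at 3. Collagen IV, Nid1 and Hspg2 carry no dot on the left and are mostly red on the right, while Lamb3 is blue on both sides.

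Agrn, a further linker gene, was not highest in the lens-rich library of any group, and Fn1 was highest in those of control and LED200 by a small margin and lowest in that of Blue200. Fn1, encoding fibronectin, was at 25.6, 34.1 and 37.9 CPM in control, 37.7, 71.9 and 72.5 in Blue200, 78.2, 111 and 92.4 in Blue1000, 54.9, 61 and 42.7 in Hal200, 70.6, 67.2 and 67.96 in Hal1000, 66.03, 62.9 and 54.7 in LED200 and 64.6, 54.8 and 39.5 in LED1000. Blue200 replicate 1 lay within the control range and the other 17 light libraries above it. Fn1 was higher in Blue1000 (1.53 ± 0.23, adjusted p = 3.03e-05), Hal1000 (1.08 ± 0.23, adjusted p = 0.000782), LED200 (0.91 ± 0.23, adjusted p = 0.00307), Blue200 (0.90 ± 0.23, adjusted p = 0.00334) and LED1000 (0.70 ± 0.23, adjusted p = 0.0158). In Hal200 it was at 0.70 ± 0.23, adjusted p = 0.0567. The all-light value was 0.97 ± 0.19, adjusted p = 0.000281, and 0.06 (adjusted p = 0.772) with the endothelial list held constant. The LED1000 call was lost without control replicate 1 (adjusted p = 0.0819) or LED1000 replicate 1 (0.082). Agrn, encoding agrin, the proteoglycan of neural and inner limiting membranes, was at 224 ± 17.04 CPM in control (SD, n = 3), and among the comparisons with control was called in Blue1000 alone (0.34 ± 0.12, adjusted p = 0.0223). Nid2, the second nidogen, was at 9.42, 11.5 and 42.5 CPM in control, 31.9, 18.3 and 9.23 in Blue200, 21.6, 22.03 and 22.2 in Blue1000, 6.43, 12.8 and 8.01 in Hal200, 12.4, 11.4 and 11.7 in Hal1000, 49.8, 7.69 and 10.4 in LED200 and 29.7, 27.1 and 26.4 in LED1000. It was called in no comparison with control.

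Among laminins the chains moved in opposite directions. Lamb3, the beta chain that pairs with the alpha chain of Lama3 in the laminin of epithelial anchoring, fell, and Lama3 rose. Lamb3 was at 51.6, 33.02 and 11.4 CPM in control, 0.766, 0.172 and 0.524 in Blue200, 0.06102, 0.4203 and 0.153 in Blue1000, 3.17, 7.88 and 11.5 in Hal200, 0.438, 0.726 and 0.227 in Hal1000, 0.143, 0.401 and 0.332 in LED200 and 0.412, 0.0575 and 0.147 in LED1000. Control and Hal200 lay above the other 15 libraries without overlap, and control replicate 3 was at the Hal200 level. Lamb3 fell by 6.03 ± 0.76 in Blue200 (adjusted p = 5.05e-06), with values of -7.21 ± 0.83 in Blue1000, -6.11 ± 0.77 in Hal1000, -6.77 ± 0.81 in LED200 and -7.26 ± 0.83 in LED1000, adjusted p from 1.6e-06 to 4.13e-06. The sizes of these falls and their order rest on few counts. Lamb3 had 2, 14 and 5 counts in Blue1000, 5, 13 and 11 in LED200 and 14, 2 and 5 in LED1000. In Hal200 it was at -2.09 ± 0.61, adjusted p = 0.0367, a call lost under 8 alternatives. Among them were leaving out control replicate 1 (-1.57, adjusted p = 0.181), control replicate 2 (-2.07, 0.0982), Hal200 replicate 1 (-1.73, 0.177) or Hal200 replicate 2 (-2.13, 0.114).

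Lamb3 and Col11a2 were among the 3 members called in Hal200. Lama3 was at 13.3, 9.71 and 11.3 CPM in control, 14.6, 24.1 and 21.8 in Blue200, 24.2, 24.6 and 22.4 in Blue1000, 16.2, 16.8 and 15.8 in Hal200, 22.2, 20.6 and 19.8 in Hal1000, 17.8, 19.02 and 27.2 in LED200 and 22.2, 16.6 and 11.96 in LED1000. It was higher in all light by 0.79 ± 0.17, adjusted p = 0.000453, and within the 5 groups other than Hal200 from 0.57 ± 0.20 in LED1000 to 1.05 ± 0.20 in Blue1000 (adjusted p = 0.025 and 0.000252). On the endothelial scale it was at -0.14 (adjusted p = 0.475), so that its sign turned there, and Lamb3 stayed lower (-6.90). Per length Lama3 and Lamb3 were at 0.6304 and 7.73 CPM per kilobase in control, and at 1.15 and 0.112 in Hal1000.

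The widely used laminin chains were higher in light, most of them past the threshold only when the lens-rich libraries were left out. Lamc1, the gamma chain of most laminins, was at 38.2, 37.2 and 66.8 CPM in control, 73.2, 75.5 and 71.7 in Blue200, 81.9, 79.4 and 78.99 in Blue1000, 55.7, 55.1 and 49.4 in Hal200, 72.1, 65.2 and 63.5 in Hal1000, 86.2, 59.1 and 72.5 in LED200 and 74.4, 71.3 and 58.4 in LED1000. It was higher in all light (0.53 ± 0.14, adjusted p = 0.00259) and in 5 groups, from 0.50 ± 0.17 in Hal1000 to 0.76 ± 0.17 in Blue1000 (adjusted p = 0.0201 and 0.00112), and was at 0.17 ± 0.17, adjusted p = 0.555, in Hal200. The calls in Hal1000 and LED1000 were lost without control replicate 1 (adjusted p = 0.103 and 0.0851), without control replicate 2 (0.106 and 0.0873), and without Hal1000 replicate 1 (0.0693) or LED1000 replicate 1 (0.0592). With the lens-rich libraries left out it was called in Hal200 as well (0.50 ± 0.11, adjusted p = 0.00492), and on the endothelial scale it turned to -0.35 in all light (adjusted p = 0.0297). Lamb1 and Lamb2, its beta partners, and Lama5, the alpha chain of adult epithelial and vascular basement membranes, were called in no comparison with control while control replicate 3 was in. That library held 59.3 CPM of Lama5 against 13.1 in both mates, 91.1 of Lamb1 against 37.2 and 34.6, and 128 of Lamb2 against 42.7 and 49.9. Without the lens-rich libraries Lama5 was at 1.26 ± 0.16, adjusted p = 3.36e-06, Lamb1 at 0.98 ± 0.18, adjusted p = 0.000333, and Lamb2 at 0.95 ± 0.11, adjusted p = 6.43e-07, in all light. Lama1, the alpha chain of the inner limiting membrane, was then at 0.75 ± 0.16, adjusted p = 0.000439. The control arm of those values is 2 libraries.

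Lama2, Lama4 and Lamc3 had smaller changes than Lamb3. Lama2, the alpha chain of muscle, nerve and glial basement membranes, was low throughout, at 1.77, 1.76 and 2.601 CPM in control, 3.83, 4.07 and 2.3 in Blue200, 2.99, 3.57 and 3.35 in Blue1000, 2.18, 1.56 and 1.49 in Hal200, 2.63, 2.24 and 2.98 in Hal1000, 5.505, 3.396 and 3.16 in LED200 and 4.301, 3.77 and 4.63 in LED1000. It was higher in LED1000 (1.05 ± 0.27, adjusted p = 0.00307), LED200 (0.97 ± 0.27, adjusted p = 0.00548), Blue200 (0.73 ± 0.27, adjusted p = 0.0299) and Blue1000 (0.69 ± 0.27, adjusted p = 0.0392). Lama4 was at 17.2, 17.6 and 14.6 CPM in control, 15.3, 22.3 and 26.1 in Blue200, 20.99, 24.8 and 23.9 in Blue1000, 17.9, 19.1 and 16.4 in Hal200, 22.9, 18.1 and 22.7 in Hal1000, 21.99, 18.9 and 22.7 in LED200 and 20.7, 16.4 and 14.9 in LED1000. It passed the test in Blue1000 alone (0.49 ± 0.16, adjusted p = 0.0159), lost that call without Blue1000 replicate 2 (adjusted p = 0.0564) or without control replicate 3 (0.0797), and ranged from 0.07 ± 0.16 to 0.36 ± 0.16 in the other groups (adjusted p from 0.0683 to 0.733). Lamc3, a gamma chain known from the retina and nerve, was higher in Hal1000 (0.67 ± 0.19, adjusted p = 0.00543), Blue1000 (0.46 ± 0.19, adjusted p = 0.0432) and Blue200 (0.46 ± 0.19, adjusted p = 0.0466).

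Of the 11 fibrillar collagens 1 was higher and 4 lower in all light, beside 29.4 and 29.2% of all tested genes. Col5a3 had the smallest adjusted p of the 60 members there. Col5a3 encodes a minor chain of collagen V, and stood at 920.5, 702 and 556 CPM in control, 41.5, 42.1 and 35.7 in Blue200, 66.8, 41.4 and 62.1 in Blue1000, 442, 506 and 837 in Hal200, 63.3, 29.6 and 47.7 in Hal1000, 50.5, 85.3 and 48.9 in LED200 and 35, 31.5 and 39.1 in LED1000. Control and Hal200 formed one range, and the other 15 libraries lay below it without overlap. Col5a3 fell by 4.37 ± 0.35 in LED1000 (adjusted p = 3.84e-08), and was at -4.19 ± 0.34, -3.95 ± 0.34, -3.68 ± 0.33 and -3.56 ± 0.33 in Blue200, Hal1000, Blue1000 and LED200 (adjusted p from 6.38e-08 to 2.76e-07). In Hal200 it was at -0.29 ± 0.30, adjusted p = 0.576. Per length it was the most abundant of the 60 genes in control, at 106 CPM per kilobase, and was at 5.16 in LED1000. Col27a1, a fibrillar collagen of cartilage, was at 169, 152 and 129 CPM in control, 63.6, 73.03 and 72.01 in Blue200, 81.4, 73.97 and 77.4 in Blue1000, 118, 129 and 146 in Hal200, 60.8, 47.9 and 53.4 in Hal1000, 71.4, 75.3 and 54.5 in LED200 and 78.2, 74.96 and 63.96 in LED1000. It showed the same split with a smaller step, -1.47 ± 0.13, adjusted p = 1.64e-08, in Hal1000 and from -1.16 ± 0.13 to -0.95 ± 0.13 in the other 4 groups (adjusted p from 3.5e-07 to 3.49e-06). In Hal200 it was at -0.20 ± 0.12, adjusted p = 0.323. Col5a3, Col27a1 and Lamb3 were low in the same libraries in which the rod list was low, and the part of rod RNA in their levels was not tested.

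**Figure D3:**
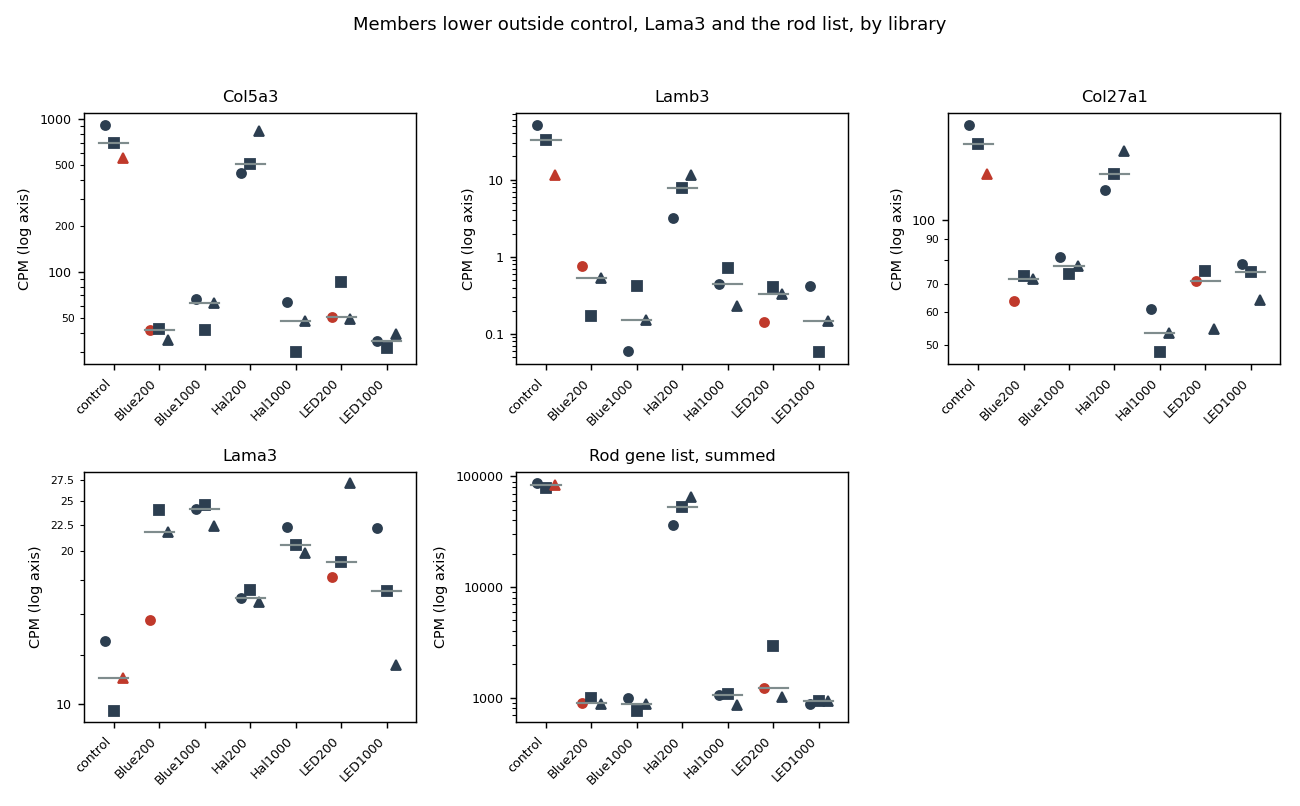
CPM on a log axis of Col5a3, Lamb3, Col27a1 and Lama3 and of the summed rod list in each of the 21 libraries, by group; circles, squares and triangles are replicates 1, 2 and 3, grey bars are group medians and the 3 lens-rich libraries are red. Col5a3, Lamb3 and Col27a1 are high in control and Hal200 like the rod list, and Lama3 is lower in control than in all light libraries but LED1000 replicate 3.

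The promoter windows of these 3 genes in the RefSeq table for GRCr8 are shown because they fell together. They lie at chr13:107362303-107362602, plus strand, for Lamb3, at chr8:27625899-27626198, minus strand, for Col5a3, and at chr5:81662658-81662957, plus strand, for Col27a1. Capitals mark GGGCGG on either strand as above, with 0, 3 and 2 matches.
Lamb3: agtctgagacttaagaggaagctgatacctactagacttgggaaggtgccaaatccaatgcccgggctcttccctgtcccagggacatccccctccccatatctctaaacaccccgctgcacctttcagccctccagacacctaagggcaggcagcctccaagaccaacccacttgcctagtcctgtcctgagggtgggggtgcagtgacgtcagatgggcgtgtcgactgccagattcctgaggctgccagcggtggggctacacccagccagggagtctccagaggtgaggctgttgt
Col5a3: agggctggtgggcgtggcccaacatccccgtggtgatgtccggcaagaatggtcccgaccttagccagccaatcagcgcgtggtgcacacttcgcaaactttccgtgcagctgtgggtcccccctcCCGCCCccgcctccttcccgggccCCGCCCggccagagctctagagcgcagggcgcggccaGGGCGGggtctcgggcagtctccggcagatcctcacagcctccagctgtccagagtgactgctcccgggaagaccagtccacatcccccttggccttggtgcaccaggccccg
Col27a1: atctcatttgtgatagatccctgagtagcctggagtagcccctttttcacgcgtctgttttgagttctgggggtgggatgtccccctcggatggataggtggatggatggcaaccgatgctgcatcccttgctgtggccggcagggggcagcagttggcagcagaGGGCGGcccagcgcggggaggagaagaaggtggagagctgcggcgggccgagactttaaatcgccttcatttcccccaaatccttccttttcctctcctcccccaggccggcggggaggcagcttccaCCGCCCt
The letters TAATCC, a core bound by the photoreceptor factor Crx, were in none of the 3 windows on either strand, in 0 of the 47 member windows and in 7.17% of all windows. The part of the higher GC content of the member windows in this was not tested. No match says only that these letters are not in this window.

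Other fibrillar collagens changed little or were scarce. Col11a2, a chain of the collagen XI of cartilage and vitreous, was lower in all light (-0.26 ± 0.085, adjusted p = 0.0144) and in Hal200 (-0.40 ± 0.11, adjusted p = 0.0302). The Hal200 call was lost under 10 alternatives, among them leaving out control replicate 1 (adjusted p = 0.115), control replicate 2 (0.177), Hal200 replicate 1 (0.152) or Hal200 replicate 2 (0.141). In LED200 Col11a2 was at -0.48 ± 0.11, adjusted p = 0.00155. Lower too was the main vitreous collagen Col2a1 in Blue1000 (-0.49 ± 0.16, adjusted p = 0.0163) and LED200 (-0.46 ± 0.16, adjusted p = 0.0248). Col1a1 and Col3a1, main collagens of sclera and skin, were low. Col1a1 was at 2.33, 2.44 and 2.33 CPM in control, 4.09, 5.24 and 4.31 in Blue200, 3.33, 9.97 and 6.23 in Blue1000, 3.39, 2.81 and 2.55 in Hal200, 4.001, 3.48 and 3.84 in Hal1000, 1.71, 2.35 and 4.55 in LED200 and 4.596, 3.16 and 2.61 in LED1000. Col3a1 was at 1.81, 1.57 and 1.66 CPM in control, 2.53, 2.21 and 2.79 in Blue200, 2.38, 4.56 and 4.45 in Blue1000, 2.52, 2.81 and 1.19 in Hal200, 2.86, 1.54 and 2.27 in Hal1000, 1.97, 2.04 and 3.16 in LED200 and 2.89, 3.71 and 2.14 in LED1000. In both genes Blue1000 replicate 2 was the highest library and its group mate replicate 3 was next, and all other libraries stayed at or below 5.24 CPM. Replicate 3 of Blue1000 is an in-between library, with both genes between replicates 1 and 2, and may not be a separate instance. Col1a1 was higher in Blue1000 (1.46 ± 0.35, adjusted p = 0.00175) and Blue200 (0.94 ± 0.35, adjusted p = 0.03), and from 0.28 ± 0.35 to 0.67 ± 0.35 in the other groups (adjusted p from 0.115 to 0.621). Col3a1 was higher in Blue1000 (1.18 ± 0.34, adjusted p = 0.0073) and from 0.37 ± 0.34 to 0.79 ± 0.34 in the others (adjusted p from 0.0585 to 0.516). Col1a1 in all light (0.70 ± 0.28, adjusted p = 0.0404) lost its call under 15 of 36 alternatives and turned negative under 2 more, with adjusted p of 0.115, 0.0985 and 0.109 without control replicate 1, 2 and 3. Its Blue200 call was lost without any 1 control library (adjusted p = 0.0749, 0.0651 and 0.0679) or Blue200 replicate 2 (0.0902). Col1a2, which encodes the partner chain of Col1a1, was at 1.18, 0.525 and 29.1 CPM in control, 5.01, 2.005 and 0.757 in Blue200, 2.23, 7.36 and 4.94 in Blue1000, 1.03, 0.749 and 1.32 in Hal200, 1.14, 1.06 and 0.966 in Hal1000, 4.51, 0.617 and 1.21 in LED200 and 1.59, 0.863 and 1.55 in LED1000. Control replicate 3 was the highest library, without a like level of Col1a1, and the fall of Col1a2 in all light (-2.48 ± 0.69, adjusted p = 0.00564) was not there without the lens-rich libraries, at 0.75 ± 0.47, adjusted p = 0.183.

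Lum and Tnmd were low in every library, while some other genes of sclera and corneal stroma were not. Of the 19 tested genes of the keratocyte and sclera list 5 were higher and 1 lower in all light, beside 29.4 and 29.2% of all tested genes. The summed list was 121 to 387 CPM in control, 158 to 392.1 in Blue200, 279 to 298 in Blue1000, 113 to 204 in Hal200, 207 to 231 in Hal1000, 183 to 528 in LED200 and 366 to 386 in LED1000. Fmod, Ogn, Prelp, Mfap4 and Pdgfra, of many connective tissues, made up most of these sums. Pdgfra is also in the astrocyte list above, so these sums are not of sclera and corneal stroma alone. Lum, encoding lumican of the corneal stroma, was at 0 to 2.67 CPM over all 21 libraries, with 0 counts in 8 of them, and Tnmd, a tendon marker, at 0 to 0.118. Dcn, encoding decorin, was at 41.4 and 23.9 CPM in Blue1000 replicates 2 and 3 and at 0 to 2.92 CPM elsewhere. In the same 2 libraries Acta2, smooth muscle actin, was at 44.3 and 23.6 CPM against 6.18 to 15.2 elsewhere, and Pmel, of pigment cells, at 226 and 120.4 CPM against 1.93 to 57.5. The skeletal muscle list summed to 59.95 and 38.99 CPM there against 13.9 to 21.3 CPM elsewhere. In Blue1000 6 of its 11 tested genes were higher and 0 lower, beside 27.4 and 26.9% of all tested genes. Their part in the Blue1000 values of Col1a1 and Col3a1 was not tested. As replicate 3 of Blue1000 is an in-between library, these 2 libraries may not be separate instances. Without Blue1000 replicate 2 the members called in Blue1000 numbered 21 in place of 27. The corneal epithelium list summed to 1012 CPM in Blue200 replicate 1, to 138 CPM in Hal200 replicate 1, to 103 CPM in Blue1000 replicate 2 and to 15.9 to 63.5 CPM elsewhere. In all light 1 of its 21 tested genes was called, beside 58.6% of all tested genes. Col17a1, a collagen of epithelial anchoring, was at 0.702, 0.5998 and 0.5405 CPM in control, 1.502, 0.773 and 1.54 in Blue200, 0.1526, 0.6304 and 0.2763 in Blue1000, 0.715, 0.569 and 0.463 in Hal200, 0.4089, 0.6349 and 0.3411 in Hal1000, 0.5705, 1.451 and 0.9041 in LED200 and 1.149, 0.7479 and 1.026 in LED1000. Krt12, the corneal keratin, was at most 4.18 CPM.

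Col8a2 had the largest rise among the members called in all light (1.78 ± 0.55, adjusted p = 0.012). Col8a1 and Col8a2 encode short-chain collagens of hexagonal matrix sheets, known from the corneal endothelium and from vessels. Col8a1 was at 0.443, 0.712 and 13.3 CPM in control, 16.9, 28.9 and 21.5 in Blue200, 20.3, 40.6 and 34.97 in Blue1000, 1.06, 3.02 and 0.8603 in Hal200, 16.6, 40.8 and 27.7 in Hal1000, 39.2, 8.24 and 32.5 in LED200 and 18.8, 17.7 and 14.5 in LED1000. Col8a2 was at 1.77, 2.399 and 13.2 CPM in control, 25.9, 30.99 and 19.5 in Blue200, 22.6, 49.1 and 37.1 in Blue1000, 2.55, 3.44 and 2.58 in Hal200, 16.6, 46.8 and 31.7 in Hal1000, 48.6, 12.4 and 31.1 in LED200 and 23.1, 24.5 and 27.5 in LED1000. Apart from control replicate 3, control and Hal200 stayed at or below 3.44 CPM in both genes, and the other 15 libraries were at 8.24 to 49.1 CPM. Col8a2 was higher in all 5 of those groups, from 2.10 ± 0.65 in LED1000 to 2.63 ± 0.66 in Blue1000 (adjusted p = 0.0127 and 0.00328; without control replicate 2 the LED1000 call was lost at 0.0544), and at -1.03 ± 0.68, adjusted p = 0.353, in Hal200. Col8a1 was higher in Blue1000 (2.71 ± 0.91, adjusted p = 0.02), Hal1000 (2.54 ± 0.90, adjusted p = 0.0272) and LED200 (2.45 ± 0.90, adjusted p = 0.0332). Without the lens-rich libraries the all-light values were 4.73 ± 0.81, adjusted p = 0.000315, for Col8a1 and 3.18 ± 0.54, adjusted p = 0.000259, for Col8a2, against 1.69 ± 0.76 and 1.78 ± 0.55 with them.

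Pigment epithelium transcripts moved with them in several groups. Rpe65, the retinoid isomerase of the pigment epithelium, was at 2.401, 4.31 and 8.51 CPM in control, 49.9, 46.8 and 34.5 in Blue200, 31.03, 60.3 and 46.2 in Blue1000, 1.24, 5.33 and 5.43 in Hal200, 28.7, 108 and 63.9 in Hal1000, 71.1, 26.6 and 66.7 in LED200 and 40.8, 42.97 and 49.4 in LED1000. In Hal1000, LED200 and Blue1000 the library with most Rpe65 also held most Col8a1 and Col8a2, and the one with least held least. Replicate 3 of Hal1000 and of Blue1000 is an in-between library, so the order there rests on replicates 1 and 2. In control the order was the same for all 3 genes. In LED1000 Col8a2 kept the order of Rpe65 and Col8a1 did not, and in Blue200 and Hal200 neither did. Replicate 2 of LED1000 is an in-between library as well. In Hal200 the library with most Rpe65 held least Col8a1. Of the 15 genes of the pigment epithelium list 11 were higher and 0 lower in all light, beside 29.4 and 29.2% of all tested genes. The summed list was 1075 to 1140 CPM in control, 1115 to 1307 in Hal200 and 2053 to 3056 in the other groups. Rlbp1 of this list is also in the Müller glia list, so the sums are not of pigment epithelium RNA alone. The part of pigment epithelium transcripts in the collagen VIII values was not tested. Slc4a11, a defining gene of corneal endothelium, was at 1.9 to 13.5 CPM, highest in control replicate 3. The corneal endothelium list held 2 genes, which went opposite ways in all light. Slc4a11 was at -0.906 ± 0.345, adjusted p = 0.0315, and Tmem178b at 0.51 ± 0.162, adjusted p = 0.0121. The part of corneal endothelium in the collagen VIII values was not tested.

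**Figure D4:**
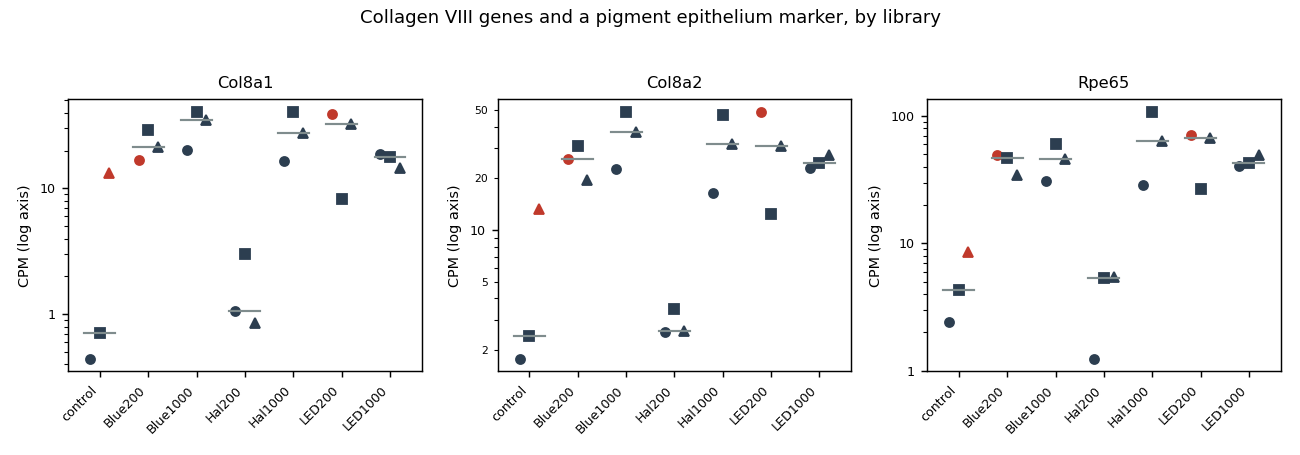
CPM on a log axis of Col8a1, Col8a2 and the pigment epithelium gene Rpe65 in each of the 21 libraries, by group; circles, squares and triangles are replicates 1, 2 and 3, grey bars are group medians and the 3 lens-rich libraries are red. In control and Hal200 Rpe65 stays below 9 CPM, Col8a1 and Col8a2 stay below 4 CPM except in control replicate 3, and within Hal1000 replicate 2 is the highest and replicate 1 the lowest for each.

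Collagen VI, which forms beaded filaments between cells and fibrils, rose in part. Of the 11 beaded and short-chain genes 4 were higher and 0 lower in all light, beside 29.4 and 29.2% of all tested genes. Col6a1 was at 6.43, 5.51 and 3.51 CPM in control, 10.4, 13.4 and 8.77 in Blue200, 10.7, 12.9 and 12.2 in Blue1000, 5.69, 6.798 and 6.92 in Hal200, 11.3, 7.98 and 10.1 in Hal1000, 7.27, 5.83 and 10.1 in LED200 and 12.1, 13.6 and 9.67 in LED1000. It was higher in Blue1000 (1.22 ± 0.23, adjusted p = 0.000208), LED1000 (1.197 ± 0.23, adjusted p = 0.000242), Blue200 (1.08 ± 0.23, adjusted p = 0.00067), Hal1000 (0.93 ± 0.23, adjusted p = 0.00229) and LED200 (0.59 ± 0.23, adjusted p = 0.0399). In all light it was at 0.89 ± 0.19, adjusted p = 0.000479, and at -0.08 on the endothelial scale, with the sign turned. Col6a3 was at 0.923, 1.91 and 1.35 CPM in control, 2.18, 2.58 and 4.92 in Blue200, 3.75, 6.15 and 5.37 in Blue1000, 3.08, 2.31 and 2.25 in Hal200, 2.92, 2.03 and 2.05 in Hal1000, 2.54, 2.84 and 1.96 in LED200 and 2.06, 1.09 and 1.32 in LED1000. Its rise was in the blue groups (1.87 ± 0.35, adjusted p = 0.000184, in Blue1000 and 1.21 ± 0.35, adjusted p = 0.00693, in Blue200), and the other groups were not called. Col6a5 was at 20.6, 16.04 and 18.6 CPM in control, 33.9, 37.3 and 26 in Blue200, 30.7, 37.6 and 36.3 in Blue1000, 44.2, 25.1 and 20.4 in Hal200, 16.9, 22.2 and 17.8 in Hal1000, 31.5, 27.3 and 38.9 in LED200 and 22.4, 20.3 and 13.98 in LED1000. It was higher in Blue1000 (0.92 ± 0.24, adjusted p = 0.00357), LED200 (0.82 ± 0.24, adjusted p = 0.00799) and Blue200 (0.81 ± 0.24, adjusted p = 0.00848), with 1 Hal200 library the highest of all 21. Col10a1 and Col26a1 stayed under 1 CPM in all libraries.

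Another set of genes differed widely between libraries of the same group. Col9a1, Col9a2 and Col9a3 encode the chains of collagen IX, which coats collagen II fibrils in cartilage and vitreous. Col9a1 was at 85.8, 116 and 220 CPM in control, 181, 144 and 77.4 in Blue200, 121, 82.4 and 102 in Blue1000, 46.4, 92.98 and 71.4 in Hal200, 77.05, 68.2 and 67.8 in Hal1000, 249, 52.5 and 55.5 in LED200 and 195, 199 and 212 in LED1000. Col9a2 was at 43.95, 47.2 and 95.5 CPM in control, 89.7, 65.2 and 21.2 in Blue200, 44.9, 23.9 and 34.05 in Blue1000, 24.1, 48.2 and 23.5 in Hal200, 31.6, 20.4 and 27.4 in Hal1000, 83.3, 25.6 and 21.3 in LED200 and 78.2, 82.5 and 91.8 in LED1000. Within control and LED200 1 library, and within Blue200 2 libraries, stood above the rest, while the 3 LED1000 libraries lay close together and above all Hal1000 libraries. Nid2 was likewise highest in replicate 3 of control and in replicate 1 of Blue200 and LED200, and Col6a2 was at 9.16, 7.83 and 25.3 CPM in control, 43.2, 17.8 and 6.67 in Blue200, 15.7, 19.6 and 18.02 in Blue1000, 7.58, 9.01 and 5.43 in Hal200, 9.26, 8.92 and 9.41 in Hal1000, 35, 4.79 and 6.6 in LED200 and 20.3, 23.6 and 19.99 in LED1000. Col18a1, the collagen of vascular and epithelial basement zones that yields endostatin, was at 96.7, 92.2 and 164 CPM in control, 152, 174 and 85.8 in Blue200, 157, 114 and 130.1 in Blue1000, 66.2, 113 and 57.1 in Hal200, 128, 88.6 and 100.5 in Hal1000, 179.6, 82.7 and 82.8 in LED200 and 175, 173 and 163 in LED1000.

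Optc, encoding opticin, a vitreous protein made by the ciliary epithelium, ran alongside. It was chosen after its values were seen, and stood at 39.6, 59.5 and 169.6 CPM in control, 117, 121 and 7.78 in Blue200, 81.98, 12.4 and 47.1 in Blue1000, 5.22, 58.7 and 7.78 in Hal200, 17.4, 4.57 and 13.1 in Hal1000, 160.5, 6.36 and 2.74 in LED200 and 174, 170.2 and 148 in LED1000. Ltbp2, encoding a microfibril protein of the ciliary zonule, was at 34.7, 37.8 and 212 CPM in control, 124, 117 and 10.4 in Blue200, 89.2, 16.2 and 58.2 in Blue1000, 3.605, 69.03 and 7.61 in Hal200, 28.7, 8.22 and 15.8 in Hal1000, 207, 9.94 and 9.46 in LED200 and 158, 153 and 135 in LED1000. The library with most Optc in a group was also the one with most Col18a1, Col4a5, Lama5 or Lamc1 in at least 6 of the 7 groups, which held for 4 of 60 members (6.67%) and for 1.42% of all tested genes. As Optc was picked by its values, that share only describes these libraries and is no test. Ltbp2 was added together with Optc. For the lens list 8 members did so (Col4a1, Col9a1, Col9a2, Col9a3, Hspg2, Lama1, Lamb2 and Nid1), which is 13.3%, against 1.8% of all genes. In Hal200 (56.5 to 84.8 CPM) and LED1000 (128 to 157 CPM) the lens list was low, and its highest library there rests on small differences. The lens list and Optc had the same highest library in control, Blue1000, Hal1000 and LED200, so these counts do not separate them. For the endothelial, corneal epithelium and keratocyte and sclera lists it was 1 member each (Col6a4, Lama2 and Col6a2), against 1.77, 2.64 and 1.64% of all genes, and for the pigment epithelium list 0, against 0.512%. The summed pigment epithelium list was highest in replicate 2 of control and Blue200, but Rpe65 in replicate 3 of control and replicate 1 of Blue200. The list also holds Rlbp1, a gene of the Müller glia list. Its count of 0 therefore does not show how members follow pigment epithelium RNA. Col9a3 was higher in LED1000 against control (0.66 ± 0.27, adjusted p = 0.0496), where Optc was at 148 to 174 CPM in all 3 libraries, against 39.6 to 170 CPM in control. The iris and ciliary list summed to 276.4 CPM in control replicate 3 against 306 and 276.1 in its mates. In LED200 replicate 1 it was at 435.8 CPM against 392.3 and 398.6, and in LED1000 at 371.3 to 404.6. The meninges list summed to 128.4 CPM in control replicate 3 against 30.25 and 32.91. It was at 150.7 CPM in LED200 replicate 1 against 12.26 and 22.96, and at 101.3 to 113.2 in LED1000. The part of ciliary, vitreous or meningeal tissue in the Col9a3 value was not tested.

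**Figure D5:**
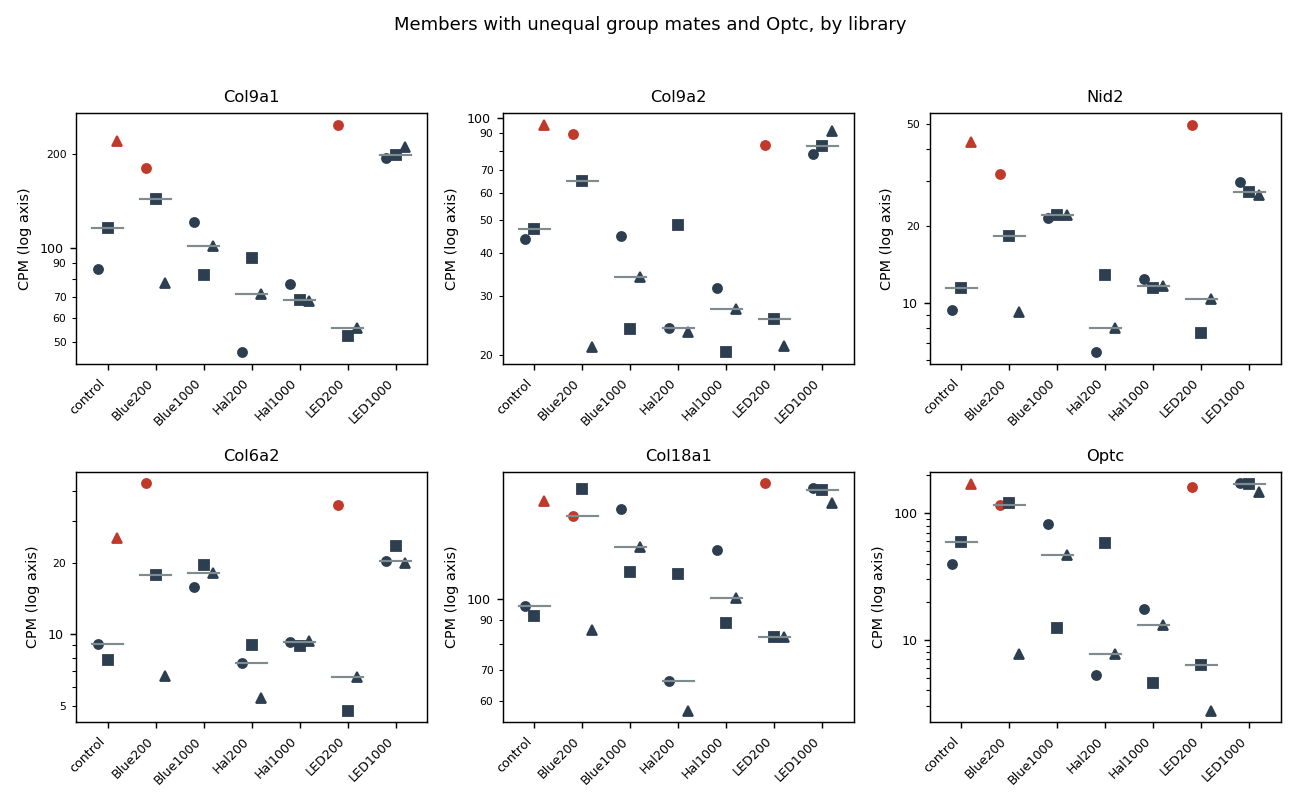
CPM on a log axis of Col9a1, Col9a2, Nid2, Col6a2, Col18a1 and Optc in each of the 21 libraries, by group; circles, squares and triangles are replicates 1, 2 and 3, grey bars are group medians and the 3 lens-rich libraries are red. All 3 LED1000 libraries lie above all 3 Hal1000 libraries, and control replicate 3, Blue200 replicate 1 and LED200 replicate 1 stand above Blue200 replicate 3 and LED200 replicates 2 and 3 in each panel.

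Collagens of the cell surface and of the basement zone were called in several groups. The transmembrane collagens Col13a1, Col23a1 and Col25a1 were all higher in all light. Col23a1 was at 211, 218 and 238 CPM in control, 255, 316 and 337 in Blue200, 306, 343 and 341 in Blue1000, 222, 205 and 243 in Hal200, 320.4, 242 and 292 in Hal1000, 286, 271 and 261 in LED200 and 311, 280.2 and 222 in LED1000. Calls came in Blue1000 (0.57 ± 0.12, adjusted p = 0.000622), Blue200 (0.45 ± 0.12, adjusted p = 0.00465), Hal1000 (0.36 ± 0.12, adjusted p = 0.0182) and LED200 (0.29 ± 0.12, adjusted p = 0.049). Col25a1, known from brain amyloid plaques, had its largest rises in Blue1000 (0.65 ± 0.14, adjusted p = 0.000493) and Hal1000 (0.60 ± 0.14, adjusted p = 0.000907), and Col13a1 in Hal1000 (0.86 ± 0.24, adjusted p = 0.00576). On the endothelial scale Col23a1 and Col25a1 turned to -0.59 and -0.46 in all light. Col7a1, the collagen of anchoring fibrils, was at 5.58, 5.66 and 4.97 CPM in control, 8.95, 6.56 and 6.58 in Blue200, 8.73, 9.16 and 8.81 in Blue1000, 5.41, 3.29 and 4.76 in Hal200, 10.9, 8.44 and 8.41 in Hal1000, 4.02, 6.45 and 7.29 in LED200 and 9.22, 7.25 and 10.6 in LED1000. Calls came in Hal1000 (0.78 ± 0.22, adjusted p = 0.0059), LED1000 (0.74 ± 0.22, adjusted p = 0.0085) and Blue1000 (0.72 ± 0.22, adjusted p = 0.0101). Col15a1, of vessel and muscle basement zones, was higher in Blue1000 (1.02 ± 0.29, adjusted p = 0.00589) and Hal1000 (0.79 ± 0.29, adjusted p = 0.028). Among the 9 collagens that sit on fibrils Col14a1 was higher in all light (0.46 ± 0.17, adjusted p = 0.0235) and Col20a1 lower (-0.42 ± 0.16, adjusted p = 0.031).

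Level 1000 differed from level 200 in the halogen groups. From Hal200 to Hal1000 7 members were higher and 4 lower, against 34.9% of all genes called (16.5 and 18.4%). Leaving out the lens-rich libraries gave 15 and 3, against 39.5%. Col27a1 fell by 1.28 ± 0.13, Col5a3 by 3.67 ± 0.33 and Lamb3 by 4.01 ± 0.72 on the log2 scale (adjusted p = 2.59e-07, 4.88e-07 and 0.000366). Col8a1 rose by 4.09 ± 0.99, Col8a2 by 3.47 ± 0.69 and Col7a1 by 1.05 ± 0.22 (adjusted p = 0.00492, 0.00117 and 0.00114). Lamc3 and Col13a1 rose by 0.65 ± 0.19 and 0.72 ± 0.24 (adjusted p = 0.0103 and 0.0255). Lamc3 lost its call without Hal200 replicate 1 (adjusted p = 0.0565), and Col13a1 without Hal200 replicate 1 (0.0624), Hal200 replicate 3 (0.0826) or Hal1000 replicate 1 (0.153). No lens-rich library belongs to either group, yet Col4a1 (0.76 ± 1.29, adjusted p = 0.699) was not called until those libraries left the shared fit (0.76 ± 0.16, adjusted p = 0.0011), and Col4a2 likewise went from 0.70 ± 0.80, adjusted p = 0.546, to 0.70 ± 0.081, adjusted p = 2.39e-06. Between the 2 blue levels 0 members were called, against 0.0125% of all genes (0.0124% without the lens-rich libraries), and between the LED levels 0, against 0.0687% (0.05% higher and 0.0187% lower). In edgeR's test the members at an unadjusted p under 0.05 numbered 4 for blue and 9 for LED, and DESeq2 called 0 and 3. Without the lens-rich libraries Col6a2 (1.90 ± 0.31, adjusted p = 0.016), Col9a3 (1.30 ± 0.20, adjusted p = 0.016), Nid2 (1.61 ± 0.27, adjusted p = 0.0192), Col9a1 (1.90 ± 0.30, adjusted p = 0.023) and Col22a1 (0.82 ± 0.17, adjusted p = 0.0488) were higher in LED1000 than in LED200, against 0.409% of all genes called.

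At level 200 the sources differed. Hal200 against the mean of Blue200 and LED200 had 3 members higher and 10 lower, against 38.6% of all genes called (20.3 and 18.3%). Col5a3 (3.59 ± 0.26, adjusted p = 1.83e-08), Col27a1 (0.94 ± 0.10, adjusted p = 8.46e-07) and Lamb3 (4.31 ± 0.57, adjusted p = 1.47e-05) were higher in Hal200. Col8a2 (-3.29 ± 0.65, adjusted p = 0.000953), Col8a1 (-3.88 ± 0.94, adjusted p = 0.00433), Lama2 (-1.08 ± 0.25, adjusted p = 0.00166), Col23a1 (-0.36 ± 0.11, adjusted p = 0.0112) and Col11a1 (-0.35 ± 0.11, adjusted p = 0.0151) were lower. Without Hal200 replicate 2 neither Col23a1 (adjusted p = 0.0818) nor Col11a1 (0.186) was called, and Col11a1 was also lost without Hal200 replicate 1 (0.0704). Blue200 and LED200 each hold 1 lens-rich library, and without these and control replicate 3 the count was 3 higher and 23 lower, against 38.4%. The halogen level effect differed from the mean of the blue and LED level effects for 6 members, 3 in each direction, against 24.8% of all genes (11.6 and 13.2%). They were Col27a1, Col5a3, Lamb3, Col8a1, Col8a2 and Lamc3. With the lens-rich libraries left out it did so for 9 members, against 27.6%.

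Receptors and enzymes that work on this matrix were followed through lists of related genes. The counts below stand beside 29.4% of all tested genes higher and 29.2% lower in all light. Of 22 integrins, syndecans and other receptors 14 were higher and 2 lower in all light. Itga7, a laminin-binding integrin, was at 0.81 ± 0.083, adjusted p = 8.02e-08, Itgav, of fibronectin and vitronectin receptors, at 0.56 ± 0.060, adjusted p = 1.52e-07, and the syndecan Sdc3 at -0.56 ± 0.062, adjusted p = 2.77e-07. Of 26 tested genes that fold, modify, trim or cross-link collagen 5 were higher and 6 lower. Adamts3, a procollagen II processing enzyme, was at -3.87 ± 0.25, adjusted p = 1.82e-09, the lysyl hydroxylase Plod1 at -0.70 ± 0.077, adjusted p = 2.15e-07, and Bmp1, which trims procollagen C-terminal ends, at 0.55 ± 0.11, adjusted p = 0.000216. Of 26 tested proteases and inhibitors of matrix turnover 15 were higher and 2 lower, with Adamts1, a proteoglycan-cleaving enzyme, at 1.18 ± 0.11, adjusted p = 2.64e-08, Mmp19, a matrix metalloproteinase, at 3.32 ± 0.32, adjusted p = 3.83e-08, and Plat, tissue plasminogen activator, at 0.88 ± 0.10, adjusted p = 5.83e-07. Of 30 further matrix proteins 10 were higher and 2 lower. Egflam, encoding pikachurin of the photoreceptor synapse, was at -2.68 ± 0.10, adjusted p = 2.84e-13 and Sparcl1 at 0.69 ± 0.052, adjusted p = 1.37e-09. Medians of the 4 lists were 0.55, 0.11, 0.63 and 0.37, beside 0.04 over all tested genes.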

How the data were processed

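The deposited tables held whole-number counts per gene and FPKM values for 21 retina libraries. Per the file headers and their values, the authors' counts were not normalized, and the authors' FPKM equal count over library total and 1 length per gene, so FPKM gave no independent measurement. R 3.2.0 stands in the submitters' processing notes. The aligner, counter, strand setting and build were not given in the sources used here. Tests used edgeR 4.0.16 in R 4.3.3 (filterByExpr, minimum count 10, minimum total 15, TMM, robust quasi-likelihood fit to all 21 libraries, 1 mean per group, Benjamini-Hochberg adjustment over 16006 genes, threshold 0.05). Alternatives used DESeq2 1.42.0 and limma 3.58.1 with pseudocounts of 1 and 0.1. Other alternatives changed scaling, filter or library set. The 3 that left out in-between libraries, those with the lens-rich ones, or the lens-rich ones under endothelial scaling were added after seeing the data. Members and lists were chosen with earlier results of these data known. The single results repeated under the alternatives were the up to 8 called members with smallest adjusted p per comparison. Any of 10 fixed members that was called in a comparison with control was added. Other calls given by name, such as those of Col15a1, Col6a5, Col2a1 and Col9a3, were not in that set. Their dependence on single libraries is therefore not given. A member that this rule picks is counted but not reported by name here. The fit was tested on simulated data. Figures used matplotlib 3.10.9.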

Additional observations from a re-analysis of the deposited data

Results flagged for a closer look

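For 6 members the effect of level 1000 against level 200 differed between halogen and the other sources, by edgeR's quasi-likelihood test of the difference itself with adjusted p over all tested genes. The halogen level effect minus the mean of the blue and LED level effects was -1.41 ± 0.15 for Col27a1 (adjusted p = 1.84e-06) and -3.52 ± 0.39 for Col5a3 (adjusted p = 6.84e-06). For Lamb3 it was -3.18 ± 0.96 (adjusted p = 0.0226). For Col8a2 it was 3.36 ± 0.80 (adjusted p = 0.00613), for Col8a1 4.16 ± 1.13 (adjusted p = 0.014) and for Lamc3 0.78 ± 0.23 (adjusted p = 0.017). For Col27a1, Col5a3 and Lamb3 the Hal200 libraries lay above all blue and LED libraries, and for Col8a1 and Col8a2 below them. Lamb3 was not past the threshold without Blue1000 replicate 2 (adjusted p = 0.0813), Hal200 replicate 3 (0.07), Hal1000 replicate 1 (0.0524), Hal1000 replicate 3 (0.0638) or LED1000 replicate 1 (0.0789). Col8a1 was not past it without Hal200 replicate 3 (0.0528), and Lamc3 not without Hal200 replicate 1 (0.0577). The rod list, low in the same 15 libraries as Col5a3, and Rpe65, higher in those 15 libraries than in control and Hal200, moved with these values, with Col8a1 in control replicate 3 (13.3 CPM) above LED200 replicate 2 (8.24 CPM), and their part was not tested.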

How the results depend on the processing

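The number of members called moved by over 1.5 times as follows. With DESeq2 it was 6 in Hal200 and 3 in LED1000 against LED200. With the bipolar list held constant it was 10 in LED1000 against LED200 and 6 in Hal200 against the mean of Blue200 and LED200. With the endothelial list held constant it was 10 in Hal200, 35 in Hal1000, 40 in LED1000, 38 in all light and 6 in Hal200 against the mean of Blue200 and LED200. With it held constant and the lens-rich libraries left out it was 20 in Hal200, 37 in LED1000, 8 in LED1000 against LED200, 7 in Hal200 against the mean of Blue200 and LED200 and 43 in the test of any difference. Fitting only the compared groups it was 11 in Blue200, 0 in Hal200 and 20 in Hal1000 against Hal200. With limma on log2(FPKM + 1) it was 30 in Blue200, 27 in LED1000 and 24 in Hal200 against the mean of Blue200 and LED200. With a pseudocount of 0.1 it was 30 in Blue200, 27 in LED1000 and 26 in Hal200 against the mean of Blue200 and LED200. On FPKM with no filter it was 28 in Blue200, 25 in LED1000 and 21 in Hal200 against the mean of Blue200 and LED200. With voom quality weights it was 9 in Hal200, 26 in LED1000, 6 in LED1000 against LED200, 12 in the halogen level effect against the others and 41 in the test of any difference. Without the lens-rich libraries it was 30 in Blue200, 10 in Hal200, 31 in LED1000, 18 in Hal1000 against Hal200, 5 in LED1000 against LED200, 26 in Hal200 against the mean of Blue200 and LED200 and 49 in the test of any difference. Without the 2 libraries with most corneal or keratocyte RNA it was 5 in Hal200 and 1 in LED1000 against LED200. Without the 3 in-between libraries it was 1 in Hal200, 8 in LED1000, 7 in Hal1000 against Hal200, 3 in the halogen level effect against the others and 17 in the test of any difference. Without those and the lens-rich libraries it was 8 in Hal200 and 25 in LED1000. Leaving out 1 library at a time gave 13 to 25 in Blue200, 21 to 29 in Blue1000, 1 to 8 in Hal200, 14 to 22 in Hal1000, 14 to 23 in LED200, 8 to 18 in LED1000, 15 to 26 in all light, 0 to 0 in Blue1000 against Blue200, 7 to 12 in Hal1000 against Hal200, 0 to 0 in LED1000 against LED200, 8 to 24 in Hal200 against the mean of Blue200 and LED200, 5 to 8 in the halogen level effect against the others and 21 to 32 in any difference between the 7 groups. In Hal200 the count was 1 without control replicate 1, Hal200 replicate 1 or Hal200 replicate 2, and 6, 5 and 8 without control replicate 3, Blue200 replicate 1 and Hal200 replicate 3. In LED1000 it was 8 without LED1000 replicate 1, in Hal1000 against Hal200 7 without Hal200 replicate 1 or Hal1000 replicate 1, and in Hal200 against the mean of Blue200 and LED200 24 without control replicate 3 and 8 without Hal200 replicate 2. The cause of these shifts was not tested, except that settings with fewer libraries have fewer degrees of freedom. Of 3135 repeats of 85 single log2 fold changes 2961 kept direction and call, 120 kept direction only and 54 turned.

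The endothelial list held constant, first with all libraries and second without the lens-rich ones, gave all 54 changes of sign among the log2 fold changes. In Blue200 they were Lama3 -0.083 and -0.057, Col23a1 -0.442 and -0.444, Lamc1 -0.209 and -0.085, Col6a1 -0.156 (second alone), Col1a1 -0.045 (second alone). In Blue1000 they were Lama4 -0.568 and -0.748, Lamc1 -0.23 and -0.057, Col6a1 -0.162 (second alone), Lama3 -0.103 (second alone), Col3a1 -0.034 (second alone). In Hal1000 they were Col25a1 -0.379 and -0.47, Lama3 -0.118 and -0.239, Col6a1 -0.104 and -0.397, Lamc1 -0.442 and -0.269. In LED200 they were Lama3 -0.101 and -0.037, Col25a1 -0.435 and -0.435, Lamc1 -0.354 and -0.219, Fn1 -0.043 (first alone). In LED1000 they were Col6a1 -0.057 and -0.351, Lama2 -0.146 and -0.076, Col7a1 -0.494 and -0.654, Lamc1 -0.654 and -0.481, Fn1 -0.496 and -0.5. In all light they were Lama3 -0.145 and -0.21, Col6a1 -0.078 and -0.356, Col25a1 -0.458 and -0.516, Col1a1 -0.247 and -0.313, Lamc1 -0.353 and -0.195. In Hal200 against the mean of Blue200 and LED200 they were Col23a1 0.145 and 0.081, Col11a1 0.171 and 0.147.

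With the replicate number as a block the counts were 16 in Blue200, 26 in Blue1000, 2 in Hal200, 17 in Hal1000, 17 in LED200, 13 in LED1000, 19 in all light, 0 in Blue1000 against Blue200, 9 in Hal1000 against Hal200, 0 in LED1000 against LED200, 11 in Hal200 against the mean of Blue200 and LED200, 6 in the halogen level effect against the others and 23 in any difference between the 7 groups. Libraries with the same number showed correlations of their deviations from the group means of -0.389 to 0.412 (median 0.0064, 63 pairs), and 5 of 21 correlated best with their own number. Libraries with different numbers showed -0.409 to 0.516 (median 0.00401, 126 pairs). The labels do not say what the number stands for, and a small shared batch was not tested. Members under 1 CPM, such as Col10a1 and Col26a1, rest on few counts.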

Other observations

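Members that lie next to each other in the RefSeq annotation of GRCr8 did not always share their levels. Col6a1 and Col6a2, neighbours on chromosome 20, differed in the lens-rich libraries, where Col6a2 stood at 25.3, 43.2 and 35 CPM and Col6a1 at 3.51, 10.4 and 7.27 CPM in control replicate 3, Blue200 replicate 1 and LED200 replicate 1.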
